A study of Mus musculus with 12 samples.

Results

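The 8 genes described here are Capn11, Fmo1, Sgip1, Akr1c18, Il1r2, Itgb3, Dennd5a and Ppic, taken from 41457 genes measured in mouse CD4+ T cells. They were chosen by measured values of these same libraries: in each of them the difference between NFATc1/ΔS and wild-type (WT) cells was not the same in Th17 cultures as in Th2 cultures. The values of that contrast are therefore given as a description, with no test. NFATc1/ΔS is a form of the transcription factor NFATc1 that cannot be joined to the small protein SUMO.

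CD4+ T cells from spleen and lymph nodes of C57BL/6 mice, either WT or carrying NFATc1/ΔS, were stimulated through CD3 and CD28. They were cultured toward Th1 with IL-12 and an antibody to IL-4, toward Th2 with IL-4 and an antibody to IFN-γ, or toward Th17 with TGFβ, IL-6 and antibodies to both IFN-γ and IL-4. Cells were collected on days 2.5 and 3.5, and poly(A) RNA was sequenced in 12 libraries, 1 for each combination of culture, genotype and day. Th17 cultures had another medium (IMDM in place of RPMI) and less anti-CD3 than Th1 and Th2 cultures, so culture type and medium cannot be told apart. Nothing in the sources tells whether each library was made from its own animals or its own culture; p-values then measure only the spread between these libraries, which may be technical. How the NFATc1/ΔS allele was made, and in which cells it is present, is not given in the sources used here.

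T cell receptor signals raise calcium in the cell, and the phosphatase calcineurin then lets NFAT proteins enter the nucleus, where they bind DNA together with partners such as AP-1. SUMO attached to a transcription factor can change which genes it represses or activates. Th2 cells are led by the factor GATA3 and make IL-4 and IL-13, whereas Th17 cells make IL-17.

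Each library held 13417121 to 17774400 reads on genes, and 78.95 to 81.37% of these were unique. The summed level of 4 T cell markers lay between 1380 and 1960 CPM (counts-per-million) in every culture and genotype, Gata3 was highest in the Th2 libraries, and Il17a, Il17f and Ccr6 in the Th17 libraries. The library labelled Th1 WT day 2.5 was closer to the Th17 libraries than to the other Th1 libraries. Across genes its log2 CPM correlated at 0.957 to 0.96 with the other Th1 libraries and at 0.965 to 0.978 with the Th17 libraries. The other Th1 libraries were not compared in this way, so whether it alone differs is not known. In the Th1 libraries, this one included, 4 Th1 markers summed to between 418 and 545 CPM and 5 Th17 markers to between 4.16 and 16.0 CPM. In the Th17 libraries the same sums were 94.2 to 185 and 84.4 to 179 CPM. B cell markers moved with the culture, with 5 of them summing to between 19.7 and 24.6 CPM in Th2, between 4.69 and 11.4 in Th17 and between 1.36 and 2.65 in Th1. Their part in the differences below was not tested. In bulk RNA, fewer cells that express a gene and less of its RNA per cell cannot be told apart.

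In the fit to the 8 Th2 and Th17 libraries, 0.298% of genes tested had a genotype response that differed between the cultures (39 of 13086; edgeR's quasi-likelihood test, Benjamini-Hochberg adjusted p under 0.05). The 8 genes ranked between 2 and 22 by p in that contrast, which follows from how they were chosen, and 14 other genes ranked at 22 or better. By that order the genes right after Ppic were Gzmb, with a difference of 0.82 on the log2 scale at rank 23, and Itih5, with -0.82 at rank 24, against 1.97 ± 0.33 for Ppic at rank 22. Errors after ± are standard errors from the model. Levels below are CPM scaled by edgeR's TMM factors, and differences are NFATc1/ΔS minus WT in log2.

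**Figure D1:**
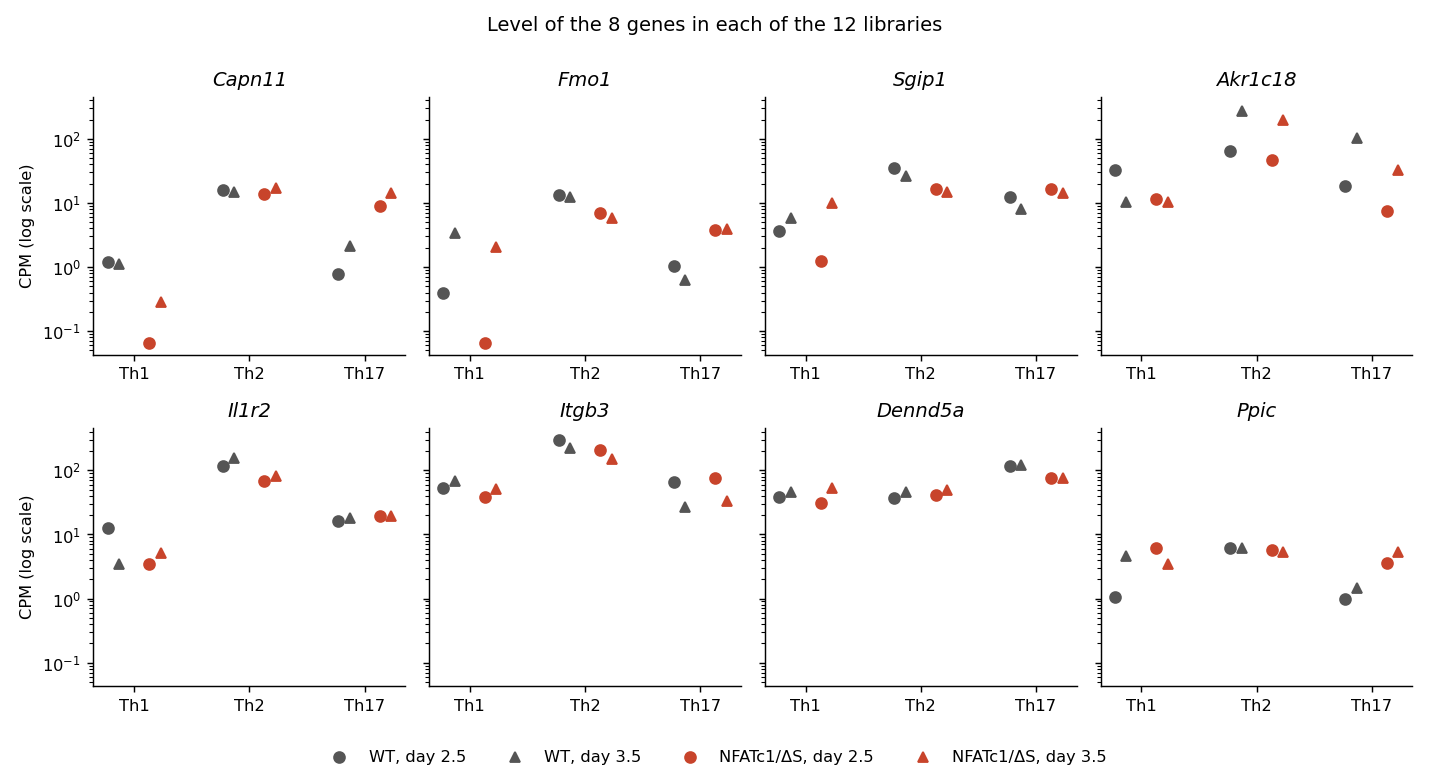
CPM of each of the 8 genes (log axis) in the 12 libraries by culture, with WT in grey, NFATc1/ΔS in red, day 2.5 as circles and day 3.5 as triangles; each point is 1 library. Capn11 in Th17 ran from 0.772 and 2.10 CPM in WT to 9.03 and 14.6 in NFATc1/ΔS, while its Th2 libraries all lay between 13.7 and 17.4.

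Capn11 and Ppic were higher in NFATc1/ΔS than in WT in Th17 cultures and nearly level between the genotypes in Th2 cultures. Capn11 codes for a calpain, a calcium-dependent cysteine protease, and is best known from testis (ENSMUSG00000058626, GRCm38, chromosome 17, 45630204 to 45659325, minus strand). In Th17 it had 0.772 and 2.10 CPM in WT at days 2.5 and 3.5, and 9.03 and 14.6 CPM in NFATc1/ΔS. In Th2 it had 15.7 and 15.1 CPM in WT and 13.7 and 17.4 CPM in NFATc1/ΔS. The genotypes did not overlap in Th17 and overlapped in Th2, and the NFATc1/ΔS Th17 library of day 3.5 lay within the range of the Th2 libraries. The Th17 ratio was 11.7 at day 2.5 and 6.94 at day 3.5, the fitted genotype difference was 3.03 ± 0.23 in Th17 and 0.01 ± 0.16 in Th2, and the 2 differed by 3.02 ± 0.28.

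In Th1, Capn11 was near the lower limit of detection, with 1.19 and 1.11 CPM in WT (18 and 17 reads) and 0.0655 and 0.283 CPM in NFATc1/ΔS (1 and 5 reads). Both Th1 NFATc1/ΔS libraries were below both WT libraries, the opposite order to Th17, with very few reads behind it. In the Th1 WT library of day 3.5, 16 of the 17 reads lay in introns. Exon reads in Th1 were 10 and 1 in WT and 1 and 0 in NFATc1/ΔS, so on these the genotypes were not fully apart. Unique reads were 18 and 9 in WT and 1 and 5 in NFATc1/ΔS. Of all Capn11 reads 90.8% were unique and 47.05% lay in introns, against medians over tested genes of 99.4% and 4.0%. Reads spanning 2 exons made up 45.2% of its exon reads (median 21.3%), and all 710 exon reads were unique. On exon reads alone the Th17 genotype difference was 3.15 ± 0.28, close to that on all reads.

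Ppic codes for cyclophilin C, a peptidyl-prolyl isomerase of the endoplasmic reticulum that binds the calcineurin-blocking drug cyclosporin A (ENSMUSG00000024538, chromosome 18, 53406341 to 53418007, minus strand). In Th17 it had 0.982 and 1.47 CPM in WT and 3.58 and 5.38 CPM in NFATc1/ΔS. In Th2 the WT libraries had 6.10 and 6.07 CPM and the NFATc1/ΔS libraries 5.76 and 5.39 CPM. Both NFATc1/ΔS Th17 libraries lay above both WT libraries, at 3.65 and 3.66 times the WT level of the same day, and the day 3.5 library nearly reached the lowest Th2 library. The fitted difference was 1.85 ± 0.26 in Th17 and -0.13 ± 0.20 in Th2.

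Markers of the Th17 type itself moved with genotype in the same Th17 libraries. Il17f, which codes for an IL-17 cytokine, was at 59.5 and 20.9 CPM with the WT allele and at 14.5 and 8.20 CPM with NFATc1/ΔS. Il17a was at 17.3 and 12.5 against 5.67 and 5.59 CPM. The chemokine receptor gene Ccr6 was at 28.1 and 28.8 against 20.4 and 19.6 CPM, and the IL-23 receptor gene Il23r at 4.21 and 4.69 against 1.57 and 1.98 CPM. These 4 markers were thus lower in both NFATc1/ΔS libraries than in both WT libraries, beside the higher Capn11 and Ppic and the lower Akr1c18 and Dennd5a described below, and their part in any Th17 difference of the 8 genes was not tested.

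The Th1 levels of Ppic were 1.06 and 4.55 CPM in WT and 6.22 and 3.45 CPM in NFATc1/ΔS, so the order of the genotypes turned between the days. All 751 Ppic reads were unique. Ppic lies 27.2 Mb from Nfatc1 on the same chromosome (Nfatc1 at 80606205 to 80713071), and whether the strain differs there from WT was not tested.

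Fmo1 and Sgip1 were lower in NFATc1/ΔS than in WT in Th2 and higher in Th17 when all reads were counted, but few of their reads were unique. Fmo1 codes for a flavin-containing monooxygenase that oxidises drugs and other foreign compounds in liver and kidney (ENSMUSG00000040181, chromosome 1, 162829561 to 162866610, minus strand). The Th2 WT libraries had 13.1 and 12.2 CPM and their NFATc1/ΔS partners 6.94 and 5.73 CPM. In Th17 it had 1.05 and 0.630 CPM in WT and 3.73 and 3.92 CPM in NFATc1/ΔS. The genotypes did not overlap in either culture, and they lay in opposite orders. The fitted difference was -1.0 ± 0.19 in Th2 and 2.17 ± 0.29 in Th17. In Th1 it had 0.396 and 3.45 CPM in WT (6 and 53 reads) and 0.0655 and 2.09 CPM in NFATc1/ΔS (1 and 37 reads), with day 3.5 above day 2.5 in both genotypes.

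Only 5 of the 770 reads counted for Fmo1 over all libraries were unique (0.649%), and 2.25% of tested genes had a lower share. The 4 Th17 libraries had 15, 9, 50 and 75 Fmo1 reads, in the order WT day 2.5, WT day 3.5, NFATc1/ΔS day 2.5 and NFATc1/ΔS day 3.5, and 0 of these were unique. The Th2 libraries in the same order had 172, 175, 94 and 83 reads, of which 2, 0, 1 and 0 were unique. No difference between genotypes or cultures was therefore measurable for Fmo1 from unique reads, and the low-count filter left it out of the fit to them. Of its 644 exon reads 1 spanned 2 exons (0.16%, against a median of 21.3% over tested genes), although Fmo1 has several exons.

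**Figure D2:**
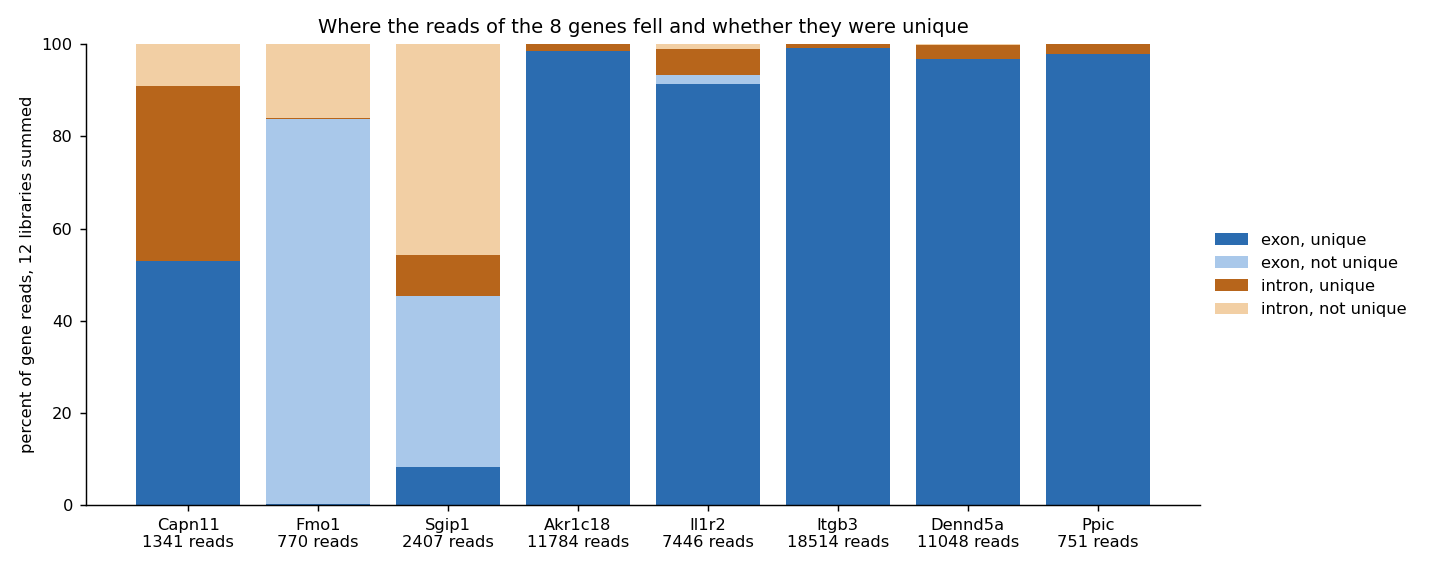
Share of the gene reads of each of the 8 genes, summed over the 12 libraries, that fell in exons or introns and were unique or not; the number of reads stands under each bar. Fmo1 (0.649% unique) and Sgip1 (17.3%) consist mostly of reads that also map elsewhere, Capn11 and Sgip1 have large intron shares, and the other 5 genes consist almost wholly of unique reads.

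The sequence that Fmo1 shares with other genes was searched as words of 50 bases in the GENCODE M21 transcripts. Of 6314 such words in Fmo1, 443 (7.02%) were also in transcripts of 26 other genes. All of them lie in 1 transcript, Fmo1-202, in its exon 5 of 5 (chromosome 1, 162840218 to 162841064) and the bases joining it to exon 4, mostly past the end of the coding sequence. The coding end of that transcript is printed because it shows where the shared sequence starts. Lower case is the last 40 coding bases of exon 4 (chr1:162850062-162850101) and capitals are the 62 coding bases of exon 5 (chr1:162841003-162841064), both on GRCm38, minus strand, 5′ to 3′.
Fmo1-202: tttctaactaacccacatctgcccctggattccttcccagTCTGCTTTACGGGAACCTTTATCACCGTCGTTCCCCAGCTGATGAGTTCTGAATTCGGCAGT
The stretch in capitals is present without a mismatch in transcripts of 11 other genes, in 6 of them on the same strand and in 5 on the opposite strand. Among them were Sgip1, in the non-coding transcript Sgip1-212 on the same strand, and Gm48161, on the opposite strand.

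Gm48161 is a non-coding gene annotated within an intron of another gene (ENSMUSG00000113424, chromosome 13, 30370359 to 30377183) and was singled out after its values were seen. It held 436 of the 443 shared Fmo1 words, and 3.68% of its 2472 reads were unique. Among WT libraries its CPM was 47.1 and 33.0 for Th2 and 5.33 and 3.15 for Th17. Among NFATc1/ΔS libraries it was 22.1 and 14.9 for Th2 and 13.5 and 11.5 for Th17. These 4 groups stood in the same order as for Fmo1, and over 12 libraries log2 CPM of the 2 genes had a Pearson r of 0.978 as a description, since they share sequence and libraries. Of the 12 other genes sharing words with Fmo1 that were tested and are not among the 8, 2 were called for a response that differed between the cultures (edgeR). They were Gm48161 at 2.68 ± 0.20 and Adamts13 at 3.85 ± 0.64, where 0.298% of all genes tested were called. The Gm48161 call is not separate from the choice of Fmo1, since most Gm48161 reads were not unique and could also be counted for Fmo1. Unlike those of Gm48161, most of the 243 Adamts13 reads were unique (95.88%). Since reads that map to more than 1 place could be counted for any gene sharing the words, the source of the Fmo1 signal cannot be told apart from these tables.

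**Figure D3:**
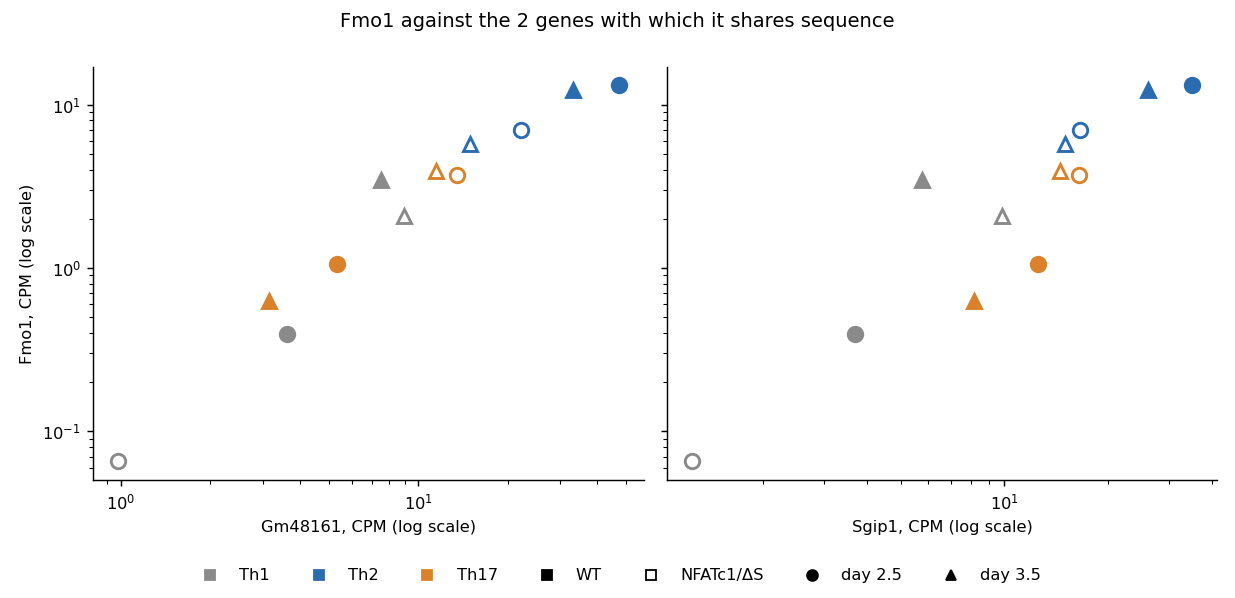
CPM of Fmo1 (vertical) against Gm48161 (left) and Sgip1 (right) in the 12 libraries, both axes log, coloured by culture, filled for WT and open for NFATc1/ΔS, circles for day 2.5 and triangles for day 3.5. Fmo1 is high where Gm48161 (r = 0.978) and Sgip1 (r = 0.898) are high, with Th2 WT highest in both panels.

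Sgip1 codes for an adaptor protein of clathrin-mediated endocytosis known from brain (ENSMUSG00000028524, chromosome 4, 102741297 to 102973628, plus strand). On all reads the Th2 WT libraries had 35.1 and 26.1 CPM and their NFATc1/ΔS partners 16.5 and 14.98 CPM. In Th17 it had 12.5 and 8.19 CPM in WT and 16.5 and 14.5 CPM in NFATc1/ΔS. In Th1 it ran from 1.25 CPM (NFATc1/ΔS day 2.5) to 9.84 CPM (NFATc1/ΔS day 3.5), with WT at 3.7 and 5.79 CPM between them. The genotypes did not overlap in Th2 or Th17 on all reads, and they overlapped in Th1.

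With unique reads only, Sgip1 was again lower in Th2 NFATc1/ΔS but was level between the genotypes in Th17. Unique reads numbered 416 of 2407 (17.3%). In Th2 they came to 66 and 55 reads in WT and 20 and 22 in NFATc1/ΔS. In Th17 they came to 41 and 46 reads in WT and 31 and 73 in NFATc1/ΔS, so that the genotypes overlapped there. The fitted difference in Th2 was -1.55 ± 0.27 with unique reads and -0.94 ± 0.13 with all reads. In Th17 it was -0.01 ± 0.25 with unique reads against 0.59 ± 0.14. Since the Th2 value moved as well, the difference between the cultures was 1.54 ± 0.37 with unique reads and 1.53 ± 0.20 with all.

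Of 10500 words of 50 bases in Sgip1, 1050 (10.0%) were shared with transcripts of 42 other genes. All of the 675 shared with genes elsewhere lie in the non-coding transcript Sgip1-212, mainly in its exon 9 (102881983 to 102883347), and 275 words are shared with Fmo1. The other 375 were shared only with Gm12709, a gene on the opposite strand at the same place, where reads cannot be assigned to either gene unless counting used the strand, which the sources do not state. Introns held 54.6% of Sgip1 reads, and 37 of its 1093 exon reads spanned 2 exons. Among the 8 genes only Fmo1 and Sgip1 had a unique share under 20%, a class that held 8.39% of all genes tested and 7 of the 39 called for the contrast (17.9%).

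Il1r2 and Itgb3 were lower in NFATc1/ΔS than in WT in Th2, and only slightly higher in Th17. Il1r2 codes for the decoy IL-1 receptor, which binds IL-1 without signalling (ENSMUSG00000026073, chromosome 1, 40074079 to 40125231, plus strand). The Th2 WT libraries had 116.6 and 157 CPM against 69.5 and 82.8 CPM in their NFATc1/ΔS partners. In Th17 it had 16.3 and 18.4 CPM in WT and 19.7 and 19.4 CPM in NFATc1/ΔS. The genotypes did not overlap in either culture, but in Th17 NFATc1/ΔS was at most 1.21 times WT of the same day. The fitted difference was -0.84 ± 0.09 in Th2 and 0.16 ± 0.11 in Th17. In Th2 the 4 Th2 markers summed to 729 and 1210 CPM with WT and 715 and 1040 CPM with NFATc1/ΔS, and the B cell markers to 24.3 to 24.6 against 19.7 to 21.9 CPM. Among the Th2 markers Il13 was at 128 and 402 against 79.8 and 237 CPM and Il5 at 15.9 and 47.2 against 8.12 and 21.6 CPM, lower with NFATc1/ΔS on each day. Il4 was at 25.5 and 45.3 against 19.6 and 46.3 CPM, lower on day 2.5 only, and Gata3 was lower on neither day. The part of these markers in the Th2 differences was not tested. In Th1 the library labelled WT day 2.5 had 12.8 CPM, and the other 3 libraries had between 3.47 and 5.09 CPM.

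Itgb3 codes for integrin β3, which pairs with integrin αV on many cells and with αIIb on platelets (ENSMUSG00000020689, chromosome 11, 104608000 to 104670476, plus strand). The Th2 WT libraries had 300.0 and 228 CPM and their NFATc1/ΔS partners 209.5 and 149 CPM. In Th17 it had 66.6 and 27.2 CPM in WT and 75.7 and 33.5 CPM in NFATc1/ΔS. At each day WT was the higher genotype in Th2 and the lower one in Th17, while across days the genotypes overlapped in Th17. The fitted difference was -0.56 ± 0.08 in Th2 and 0.23 ± 0.09 in Th17. The Th1 libraries had 53.1 and 67.4 CPM in WT and 38.2 and 51.0 CPM in NFATc1/ΔS. The 5 markers of platelets and megakaryocytes summed to between 0.66 and 2.9 CPM in all libraries, with Gp9 at 0 in each of them.

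Akr1c18 and Dennd5a were lower in NFATc1/ΔS in Th17, and in Th2 Akr1c18 was less reduced and Dennd5a was not lower. Akr1c18 codes for 20α-hydroxysteroid dehydrogenase, an aldo-keto reductase that inactivates progesterone (ENSMUSG00000021214, chromosome 13, 4132615 to 4150654, minus strand). The Th17 WT libraries had 18.2 and 103 CPM and their NFATc1/ΔS partners 7.54 and 32.4 CPM. In Th2 it had 64.5 and 275 CPM in WT and 47.6 and 199 CPM in NFATc1/ΔS. WT was above NFATc1/ΔS on each day in both cultures, by more in Th17. The ratio of NFATc1/ΔS to WT was 0.413 and 0.314 in Th17 and 0.738 and 0.722 in Th2, and the fitted differences were -1.56 ± 0.11 and -0.45 ± 0.09. In Th1 the library labelled WT day 2.5 had 32.3 CPM and the other 3 between 10.3 and 11.5 CPM.

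Dennd5a codes for a DENN domain protein that acts on Rab GTPases in membrane traffic (ENSMUSG00000035901, chromosome 7, 109893780 to 109960470, minus strand). The Th17 WT libraries had 117.7 and 121.7 CPM and their NFATc1/ΔS partners 75.5 and 76.5 CPM. In Th2 it had 37.4 and 46.1 CPM in WT and 41.6 and 50.0 CPM in NFATc1/ΔS. Th17 was the culture with the highest level in both genotypes, and within it the genotypes did not overlap, while in Th2 they did. The fitted difference was -0.67 ± 0.08 in Th17 and 0.14 ± 0.09 in Th2. The Th1 libraries had 39.1 and 45.5 CPM in WT and 31.3 and 53.5 CPM in NFATc1/ΔS, with no steady order of the genotypes.

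**Figure D4:**
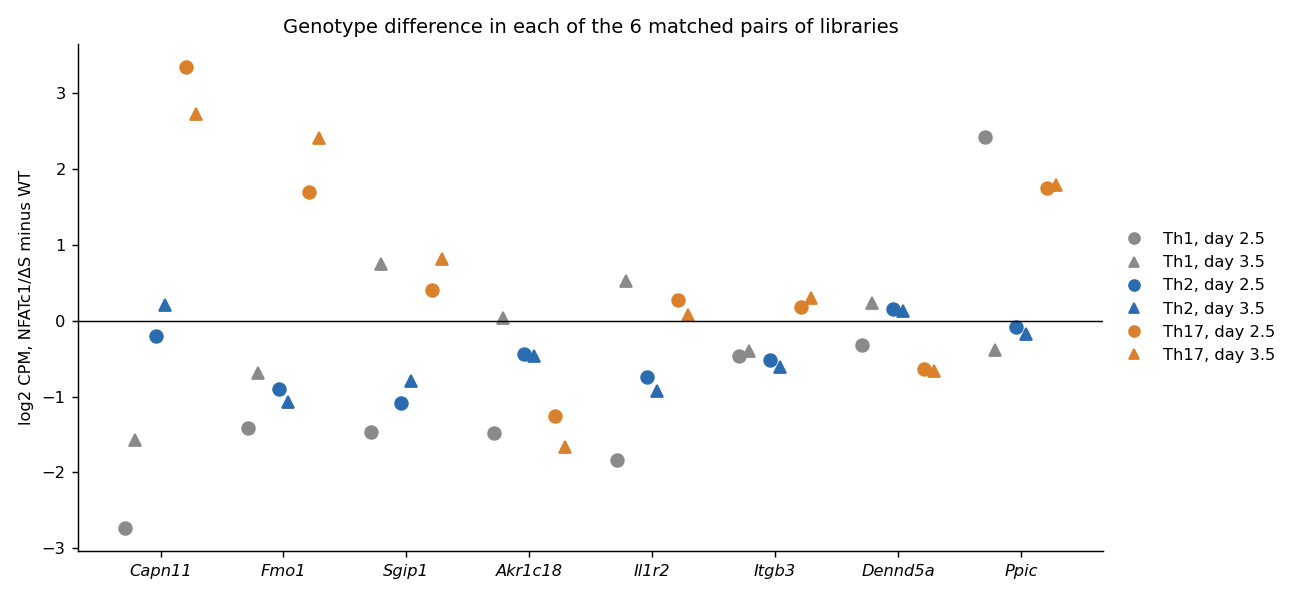
Log2 CPM of NFATc1/ΔS minus WT (vertical) for each gene in the 6 pairs of libraries of the same culture and day, coloured by culture, with circles for day 2.5 and triangles for day 3.5; each point is 1 pair. The 2 Th17 pairs of Capn11 lie at 3.34 and 2.72 and its Th2 pairs at -0.20 and 0.21; the 2 Th1 pairs of Ppic, Sgip1, Il1r2 and Dennd5a lie on opposite sides of 0.

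The levels of different genes were compared per length, as exon reads per kilobase of exon, scaled to the library's reads. In Th2 the median level was highest for Akr1c18 (107), followed by Il1r2 (45.6), Itgb3 (34.3), Dennd5a (4.62), Ppic (4.17), Capn11 (2.85), Fmo1 (1.16) and Sgip1 (0.859). In Th17 the order was Akr1c18 (21.8), Dennd5a (11.1), Il1r2 (9.36), Itgb3 (8.63), Ppic (1.89), Capn11 (1.09), Sgip1 (0.691) and Fmo1 (0.328). The first 4 names are the same set in both cultures, with Dennd5a moving up. The ranges over the 4 Th17 libraries of Akr1c18 (5.99 to 89.8), Dennd5a (8.11 to 14.6), Il1r2 (7.85 to 9.49) and Itgb3 (4.85 to 12.2) overlapped. With unique exon reads alone the median of Fmo1 was 0.00527 in Th2 and 0 in Th17, and that of Sgip1 was 0.172 in Th2 and 0.0952 in Th17.

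The difference between Th17 and Th2 averaged over genotypes and days was tested, since the choice of genes did not use that difference. The choice did use the model's spread between libraries, which also enters this test and the day tests below. Their p-values are therefore not independent of the choice. With all reads counted, all 8 genes passed (edgeR's quasi-likelihood test, Benjamini-Hochberg adjusted): 7 were lower in Th17, where 22.3% of all genes tested were lower, and Dennd5a was higher, as were 22.9% of genes. For Fmo1 this rests on reads of which 5 of 770 were unique, so its culture difference was not measurable from unique reads. Sgip1 did not pass with unique reads, as given below. Il1r2 was lower at -2.47 ± 0.07 (edgeR adjusted p = 4.97e-12) and Itgb3 at -2.22 ± 0.06 (edgeR adjusted p = 3.69e-12), and in both every Th17 library lay below every Th2 library. Fmo1 was at -2.31 ± 0.17, Akr1c18 at -2.15 ± 0.07, Capn11 at -1.97 ± 0.14 and Ppic at -1.34 ± 0.17 (edgeR adjusted p = 1.7e-05 for Ppic, the largest of the 8). Dennd5a was higher in Th17 by 1.13 ± 0.06 (edgeR adjusted p = 2.39e-09), with all Th17 libraries above all Th2 libraries.

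For Capn11, Fmo1 and Ppic the gap between the cultures was wider in WT than in NFATc1/ΔS libraries, which follows from how the genes were chosen. Sgip1 was at -0.80 ± 0.10 on all reads (edgeR adjusted p = 1.51e-05) and turned to 0.23 ± 0.19 with unique reads (edgeR adjusted p = 0.331). With all 12 libraries in the fit, which adds the wider spread of the Th1 libraries, Sgip1 and Ppic did not pass (edgeR adjusted p = 0.111 and 0.0837).

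From day 2.5 to day 3.5, Akr1c18 rose and Itgb3 fell in both cultures. In Th2, 4 of the 8 genes changed with day and 28.1% of all genes tested did; in Th17, 3 of 8 changed and 32.4% of all genes did, so these counts were near the background. Akr1c18 rose by 2.09 ± 0.09 in Th2 (edgeR adjusted p = 5.06e-08) and by 2.34 ± 0.11 in Th17 (edgeR adjusted p = 1.56e-07), at 4.25 and 5.05 times. Itgb3 fell by 0.44 on the log2 scale in Th2 (SE 0.08, edgeR adjusted p = 0.00142) and by 1.24 in Th17 (SE 0.09, edgeR adjusted p = 1.83e-06). Each change was seen in both genotypes.

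Capn11 rose by 0.81 ± 0.21 in Th17 (edgeR adjusted p = 0.00911), and Il1r2 and Dennd5a rose in Th2 by 0.35 ± 0.09 and 0.29 ± 0.09 (edgeR adjusted p = 0.00884 and 0.0246). The other members did not pass, with adjusted p between 0.114 and 0.895 in Th2 and between 0.0541 and 0.855 in Th17. Without either Th17 NFATc1/ΔS library the Capn11 rise was 1.43 or 1.40, which rests on the Th17 WT libraries with 11 and 30 Capn11 reads. Without either Th17 WT library it was 0.64. Without either Th2 WT library neither Il1r2 (adjusted p = 0.233 and 0.236) nor Dennd5a (adjusted p = 0.233 and 0.231) passed in Th2, and without either Th2 NFATc1/ΔS library Dennd5a did not (adjusted p = 0.178 and 0.176). By DESeq2 these 2 genes and Capn11 did not pass (adjusted p = 0.114, 0.21 and 0.0696), and in the fit to all 12 libraries no day change of the 8 genes did.

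**Figure D5:**
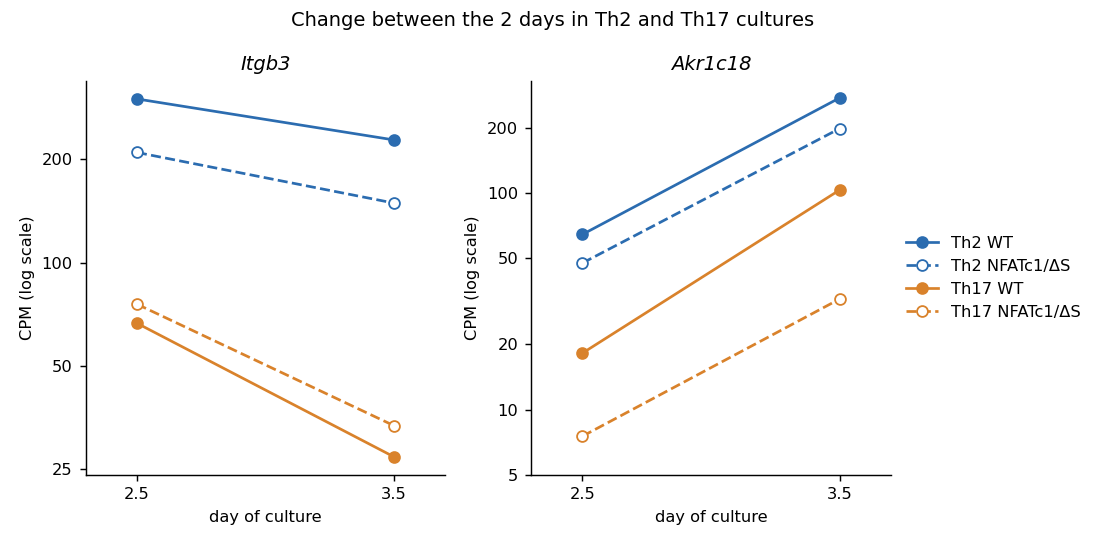
CPM (log axis) of Itgb3 and Akr1c18 on days 2.5 and 3.5 in Th2 (blue) and Th17 (orange), WT as filled points with solid lines and NFATc1/ΔS as open points with dashed lines; each point is 1 library. Itgb3 falls from 66.6 to 27.2 CPM in Th17 WT and from 300.0 to 228 in Th2 WT, and Akr1c18 rises in all 4 pairs of libraries.

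The change with day differed between the cultures for Itgb3 and not detectably for the other 7. Itgb3 fell further in Th17 than in Th2, with a difference of -0.81 ± 0.12 (edgeR adjusted p = 0.00355), where 1.49% of all genes tested passed. In Th17 it went from 66.6 to 27.2 CPM in WT and from 75.7 to 33.5 CPM in NFATc1/ΔS, so the genotypes moved alike. The other 7 had edgeR adjusted p between 0.304 and 0.981, with Akr1c18 at 0.25 ± 0.15. In the fit to all 12 libraries the Itgb3 difference was again -0.81 but did not pass (edgeR adjusted p = 1).

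Whether the genotype difference changed with day was tested over Th2 and Th17 together, with 1 residual degree of freedom. None of the 8 genes passed (edgeR adjusted p between 0.231 and 0.973, and 1 with an unadjusted p under 0.05), where 6.22% of all genes tested did. In the main model this change with day is the spread against which the choosing contrast was measured. Genes ranked high by p in that contrast tend to have little of it, so this outcome follows in part from the choice.

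The Th1 libraries did not take part in the choice of the 8 genes. No gene passed for the genotype difference in Th1 (0.0% of 13503 tested with edgeR, and 0 with DESeq2 and limma-voom; 718 had an unadjusted p under 0.05 with edgeR), and none of the 8 did (edgeR adjusted p between 0.594 and 0.904; 3 at an unadjusted p under 0.05). Capn11 stood at -2.64 ± 0.55, Fmo1 at -0.98 ± 0.41, Itgb3 at -0.45 ± 0.11 and Ppic at 0.91 ± 0.63. In Th1 the difference was below 0 in both pairs for Capn11, Fmo1 and Itgb3, and for Itgb3 and Fmo1 that is the side on which Th2 lay. The Fmo1 pair of day 2.5 held only 6 WT reads and 1 NFATc1/ΔS read, and almost none of the Th1 reads of Fmo1 were unique. With 2 pairs, 1 of which holds the WT day 2.5 library that was closer to Th17, a difference between Th1 and either other culture was not tested. Without a Th1 library of day 3.5, the Th1 comparison rests on the day 2.5 pair, 1 library per genotype, which holds that WT library. The lone pair is assumed to vary like the other cultures. Capn11 was then at -4.02 (edgeR adjusted p = 0.0037 and 0.00378) and passed with Sgip1, Akr1c18, Il1r2, Itgb3 and Ppic, but 36.4 and 36.5% of all genes tested passed too. Fmo1, which missed the threshold there, moved to -2.45 (edgeR adjusted p = 0.105 and 0.104).

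Apart from Fmo1 and Sgip1, the kind of reads counted made little difference. All Ppic reads were unique, and unique shares were 99.97% for Itgb3, 99.94% for Akr1c18, 99.86% for Dennd5a and 97.02% for Il1r2. With unique reads the fitted difference between the cultures was 3.03 ± 0.28 for Capn11 (3.02 with all reads), 1.97 ± 0.33 for Ppic (1.97), 0.98 ± 0.14 for Il1r2 (0.99), 0.79 ± 0.12 for Itgb3 (0.79), -1.11 ± 0.14 for Akr1c18 (-1.10) and -0.81 ± 0.12 for Dennd5a (-0.80). Il1r2 overlaps Gm16894 on the opposite strand and Gm37347 on its own, so its reads at those places are uncertain.

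No relative of the 8 genes passed for the contrast that chose them. In 8 lists with 130 genes of the same families or pathways, 101 were tested and 0 had a genotype response that differed between the cultures (edgeR, 4 at an unadjusted p under 0.05; DESeq2 and limma-voom also 0, with 1 and 4), against 0.298% of all genes tested. For so few genes, 0 is near that share. List medians lay between -0.09 and 0.14, beside a median near 0 over all genes. The calpain list had 9 genes tested, among them Capn10 at -0.46 ± 0.23 (edgeR adjusted p = 0.85). Of the flavin monooxygenases only Fmo5 was tested, at 0.14 ± 0.32. Among the 21 integrins, talins and kindlins, the collagen receptor subunit gene Itga1 had the smallest p, at 5.07 ± 1.13 (edgeR adjusted p = 0.102), with at most 1.52 CPM in any library. In the IL-1 family, the IL-36 receptor gene Il1rl2 was at -1.59 ± 0.54 (edgeR adjusted p = 0.537).

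Of the aldo-keto reductases, Akr1c13 came closest to Akr1c18, from which its start lies 40496 bases away. The Th17 WT libraries had 7.44 and 19.2 CPM and their NFATc1/ΔS partners 3.21 and 9.03 CPM. In Th2 it had 16.3 and 26.9 CPM in WT and 10.6 and 17.6 CPM in NFATc1/ΔS. It was lower in NFATc1/ΔS on each day in both cultures, but the difference between the cultures, -0.53 ± 0.19, did not pass (edgeR adjusted p = 0.596). The clathrin partners Reps2 (-1.27 ± 0.76) and Fcho1 (0.22 ± 0.13), the Rab6 gene Rab6b (-0.32 ± 0.15) and the cyclophilin genes Ppih (0.26 ± 0.17) and Ppig (-0.20 ± 0.13) did not pass either. Of 29 tested genes starting within 250 kb of one of the 8, 0 passed (edgeR, 1 at an unadjusted p under 0.05, and also 0 with DESeq2 and limma-voom). Among all genes tested 0.298% passed, so 0 of so few genes is near the background.

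The genes whose levels over the 12 libraries were most like those of each member were found by Pearson correlation of log2 CPM among 10855 genes, as a description. Il1r2 was closest to Srgn (0.988), the gene of the granule proteoglycan serglycin, then Gla (0.984) and Gna15 (0.984). Itgb3 was closest to the kinase gene Src (0.979), then Uvrag and Rab9, and Dennd5a to Marveld1 (0.977), Itpripl1 and M1ap. Capn11 was closest to Slc15a2 (0.962), then Zap70, a kinase of T cell receptor signalling, and Zfp831. Akr1c18 was closest to Grn (0.948), Trp53i11 and Cyp4f16, and Ppic to Dapl1 (0.94), Cog1 and Ankrd13a. Among genes with ordinary symbols Fmo1 was closest to Cnnm4 (0.962), Ldhd and Hipk1, and Sgip1 to Gpsm1 (0.959), Coro1b and Rragd.

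Promoter windows of 250 bases before to 50 after the start were available from RefSeq (GRCm38.p6) for Il1r2, Sgip1, Dennd5a, Akr1c18 and Capn11. They were searched on both strands for the NFAT core GGAAA, which 61.3% of all 32851 windows hold. Akr1c18 and Dennd5a had 1 match each in this window and the other 3 had 0, so the core was not more common here than among all windows. The windows of these 2 and of Capn11, the gene with the largest Th17 difference, are printed with matches in capitals (shown as TTTCC where the match is on the other strand).
Akr1c18, chr13:4150597-4150896, minus strand: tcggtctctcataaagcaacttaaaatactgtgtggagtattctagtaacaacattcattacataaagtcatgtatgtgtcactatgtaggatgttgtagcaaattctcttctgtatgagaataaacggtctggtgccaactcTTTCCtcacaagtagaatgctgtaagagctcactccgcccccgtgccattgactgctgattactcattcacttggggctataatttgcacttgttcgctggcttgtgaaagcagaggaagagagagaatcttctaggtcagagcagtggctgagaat
Dennd5a, chr7:109960421-109960720, minus strand: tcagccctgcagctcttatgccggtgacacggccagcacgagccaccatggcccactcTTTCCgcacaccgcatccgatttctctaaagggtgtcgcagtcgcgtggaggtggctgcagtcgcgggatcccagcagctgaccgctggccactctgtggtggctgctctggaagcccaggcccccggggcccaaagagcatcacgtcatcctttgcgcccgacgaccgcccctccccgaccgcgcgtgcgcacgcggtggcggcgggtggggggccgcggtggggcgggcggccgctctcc
Capn11, chr17:45659260-45659559, minus strand: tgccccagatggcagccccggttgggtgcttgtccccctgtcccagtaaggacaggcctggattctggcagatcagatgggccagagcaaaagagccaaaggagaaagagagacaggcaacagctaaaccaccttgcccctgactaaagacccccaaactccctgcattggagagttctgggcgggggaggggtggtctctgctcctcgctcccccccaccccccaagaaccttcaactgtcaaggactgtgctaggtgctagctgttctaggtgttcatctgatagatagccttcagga
The AP-1 site TGANTCA, held by 7.8% of windows, had no match in any of these windows. A match is a description of the letters and not of binding.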

How the data were processed

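Poly(A) RNA was sequenced in 12 libraries, prepared with a NEBNext Ultra II kit per the labels' protocols. The authors deposited 1 table per library with 41457 genes; per the file headers these hold counts of total and unique gene, exon, intron and exon-exon reads. Gene reads were the sum of exon and intron reads in all tables. The submitters' processing notes name the build GRCm38; the aligner, the counting program and the strand setting were not given in the sources used here. Total gene reads include reads that also map elsewhere. The deposited TPM and RPKM values were not used; levels per length were computed from exon reads.

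Differences were fitted with edgeR 4.0.16 in R 4.3.3: TMM scaling, a filter on low counts (filterByExpr with a minimum count of 10 and a minimum total of 15), robust quasi-likelihood tests and Benjamini-Hochberg adjustment at 0.05 over all genes tested. The 8 Th2 and Th17 libraries shared a model with culture, genotype within culture and day within culture, which leaves 2 degrees of freedom; the Th1 genotype difference came from the same model of all 12 libraries. Each group has 1 library, so the other day or genotype serves as the repeat. The biological coefficient of variation was 7.63% for 8 libraries and 16.7% for 12. The standard error of a log2 fold change is its size over the root of the F statistic. A prior count of 2 was added for log2 CPM. The scripts were tested on simulated data.

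The members and the lists of relatives were chosen with earlier results of these data known. All 8 members are named; of each list the genes called, or otherwise up to 2 of smallest p, were to be named, and for each member the 3 most alike genes with mean log2 CPM of at least 1 and a symbol of an ordinary gene (no clone, segment or pseudogene). The alternatives tried were DESeq2 1.42.0, limma-voom (limma 3.58.1), RLE size factors, no read filter, CPM over 1, no robust fit, unique reads, exon reads, all 12 libraries (or the Th1 libraries alone) and each library left out. Shared words and transcripts come from GENCODE M21 (GRCm38), promoters from RefSeq (GRCm38.p6).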

Additional observations from a re-analysis of the deposited data

Results flagged for a closer look

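The change of Itgb3 between day 2.5 and day 3.5 differed between the cultures, by -0.81 ± 0.12 on the log2 scale (Th17 minus Th2; edgeR's quasi-likelihood test, adjusted p = 0.00355). It was flagged because the test of the difference itself passed. Itgb3 was lower at day 3.5 in 4 of 4 pairs of libraries that differ only in day, and further so in both Th17 pairs.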

How the results depend on the processing

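The number of genes whose genotype response differed between Th17 and Th2 was 39 with edgeR and 13 with DESeq2, 16 without the robust fit, 65 with unique reads and 167 with no read filter. It was 64 to 104 with 1 library left out. With all 12 libraries in the fit it was 0 (206 at an unadjusted p under 0.05). The culture difference counted 5915 genes, and 3323 with DESeq2 or 2327 with all 12 libraries. The day change in Th2 counted 3679 genes, 1600 with DESeq2, 0 with all 12 libraries (2433 unadjusted) and 1805 to 4347 with 1 library left out; that in Th17 counted 4236, 2058, 0 (2770 unadjusted) and 2570 to 4393. The day change that differs between the cultures counted 195 genes, and 95 with DESeq2, 128 without the robust fit, 519 with no read filter, 0 with all 12 libraries (435 unadjusted) and 177 to 346 with 1 library left out. Genotype by day counted 814 genes, and 31 with DESeq2. Leaving out a library was not possible there, since no degree of freedom was left. The Th1 genotype difference counted 0 genes, and 15 to 5087 with 1 Th1 library left out, the higher counts without a library of day 3.5. The causes of these shifts were not tested.

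For the 8 genes, 125 of 135 alternative values of the difference between the genotype responses lay within 1 standard error of the main value. The other 10 did not, all 10 with 1 Th17 library left out, and no sign changed. This steadiness follows in part from how the genes were chosen, since the same libraries and contrast were used. The tested results counted next are only those that passed in the main fit, together with all Th1 differences. Other results that did not pass in the main fit were left out, so only Th1 values could pass in addition. Of 374 alternative values of the tested results, 329 kept direction and side of the threshold, 19 no longer passed and 12 passed in addition. The remaining 14 changed sign. Sgip1 between the cultures was 0.23 with unique reads, and its Th1 difference was 0.09 with limma-voom, 1.16 with unique reads, 0.33 with exon reads and -1.56 to 0.75 with 1 Th1 library left out. In the same way the Th1 difference ran from -1.49 to 0.02 for Akr1c18, from -1.88 to 0.52 for Il1r2, from -0.33 to 0.21 for Dennd5a and from -0.42 to 2.55 for Ppic. Fmo1 has no value with unique reads. The main model already pairs the genotypes by culture and day, through its culture and day terms; no fit with a replicate number was possible because the labels give none. Counting error limits Capn11, Fmo1 and Ppic in the libraries with few reads.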
